A study of Mus musculus with 13 samples.

Results

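The 41 genes described here belong to the transforming growth factor beta (TGF-beta) and bone morphogenetic protein (BMP) pathways. They comprise 12 ligands, 7 receptors, 8 Smads, 5 antagonists or inhibitors, 4 latent TGF-beta binding proteins and 5 targets. They were taken by symbol from a fixed list, whose rule uses no measured value. The list was chosen with earlier results of these data known. Its genes make up 41 of the 33432 named genes in the deposited table. The table gives RNA-seq levels of polyadenylated RNA from mesenchymal stromal cells (MSCs), the bone marrow cells that give rise to bone and matrix and send signals to blood-forming cells. All cells came from C57BL/6 mice and were sorted out of marrow and compact bone. The 13 libraries were 4 named as recovered, 6 from pre-leukemic mice and 3 from healthy mice in homeostasis. The protocol lists pre-leukemic mice treated with MSCs as another source of cells, and the recovered libraries were taken to be these. Not given in the sources used here were the leukemia model with any allele or agent behind it, the age of the mice, the surface markers of the sort, and the number of mice behind each replicate. The p-values below therefore measure the spread between these samples, which may be technical.

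Ligands of this family bind pairs of type I and type II receptor kinases on the cell surface. TGF-beta and activin then activate Smad2 and Smad3, and BMPs activate Smad1, Smad5 and Smad9. These join Smad4 and enter the nucleus, where the Id genes are among the best known BMP targets. In bone, BMPs drive the formation of osteoblasts, and TGF-beta is stored in the matrix in a latent form held by binding proteins. Secreted antagonists such as noggin keep BMPs from their receptors, and Smad6 and Smad7 damp the signal inside the cell.

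Levels are in FPKM, read fragments scaled to transcript length and library size, so genes can be compared per length. From the steps between low values, 3 reads on a 1 kb transcript were worth 1.05 to 1.91 FPKM in recovered, 0.514 to 0.768 in pre-leukemic and 0.961 to 1.19 in healthy libraries, which covers counting error only. Healthy 1 and healthy 3 differed by little more than the sampling noise (chi-square per gene 1.2 over 435 genes with 10 to 100 reads, and at least 9.71 for the 23 other pairs of 1 group), so their mean was counted as 1 sample. The immunoglobulin genes took 0.0059 to 0.134% of the summed FPKM in recovered, 54.9 to 80.5% in pre-leukemic and 0.0187 to 0.0301% in healthy libraries. The stromal chemokine gene Cxcl12 lay at 497 to 910 FPKM in recovered, 6.75 to 124 in pre-leukemic and 369 to 508 in healthy libraries. Ptprc, which encodes the leukocyte antigen CD45, lay at 0.365 to 16.4, 80.7 to 155 and 0.0797 to 1.25 FPKM in the same order of groups. Col1a1, the bone collagen gene, lay at 489 to 784, 3.23 to 10.4 and 995 to 1070 FPKM, and Igj, the joining chain gene of plasma cells, at 0 to 13.9, 44500 to 69200 and 0 to 0.263 FPKM. The label MSC thus went with low Cxcl12 and Col1a1 and high Ptprc and Igj in the libraries labelled pre-leukemic. Ly6a, another stromal marker, went the other way, at 1922 to 2580 FPKM in recovered, 3150 to 6375 in pre-leukemic and 1103 to 1390 in healthy libraries.

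The 41 genes held a small share of the summed FPKM that was lowest in pre-leukemic libraries. They summed to 0.314 to 0.397% of the FPKM in recovered, 0.0191 to 0.041% in pre-leukemic and 0.444 to 0.506% in healthy libraries, with no overlap. That sum includes the immunoglobulin genes, at 54.9 to 80.5% of it in pre-leukemic libraries, so every other gene's share is smaller there than without them. The part of this in the difference was not tested. At least 1 FPKM was reached by 28 to 34 of the 41 genes in recovered, 18 to 26 in pre-leukemic and 33 to 35 in healthy libraries. A like count over all genes was not made. Id3 had the highest level of any member in every recovered and healthy library, and Id2 in every pre-leukemic library. At the low end, 5 members did not reach 1 FPKM in at least 3 libraries and were not tested. These were the ligand genes Bmp3 (at most 0.24 FPKM), Bmp5 (5.50 FPKM in pre-leukemic 4 and at most 0.559 elsewhere) and Gdf5 (0.447 FPKM in recovered 4 and listed at 0 elsewhere). The BMP antagonist gene Grem1 reached at most 1.42 FPKM, and the BMP receptor gene Bmpr1b at most 0.337 FPKM in recovered, 0 in pre-leukemic and 0.479 to 1.80 FPKM in healthy libraries.

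**Figure D1:**
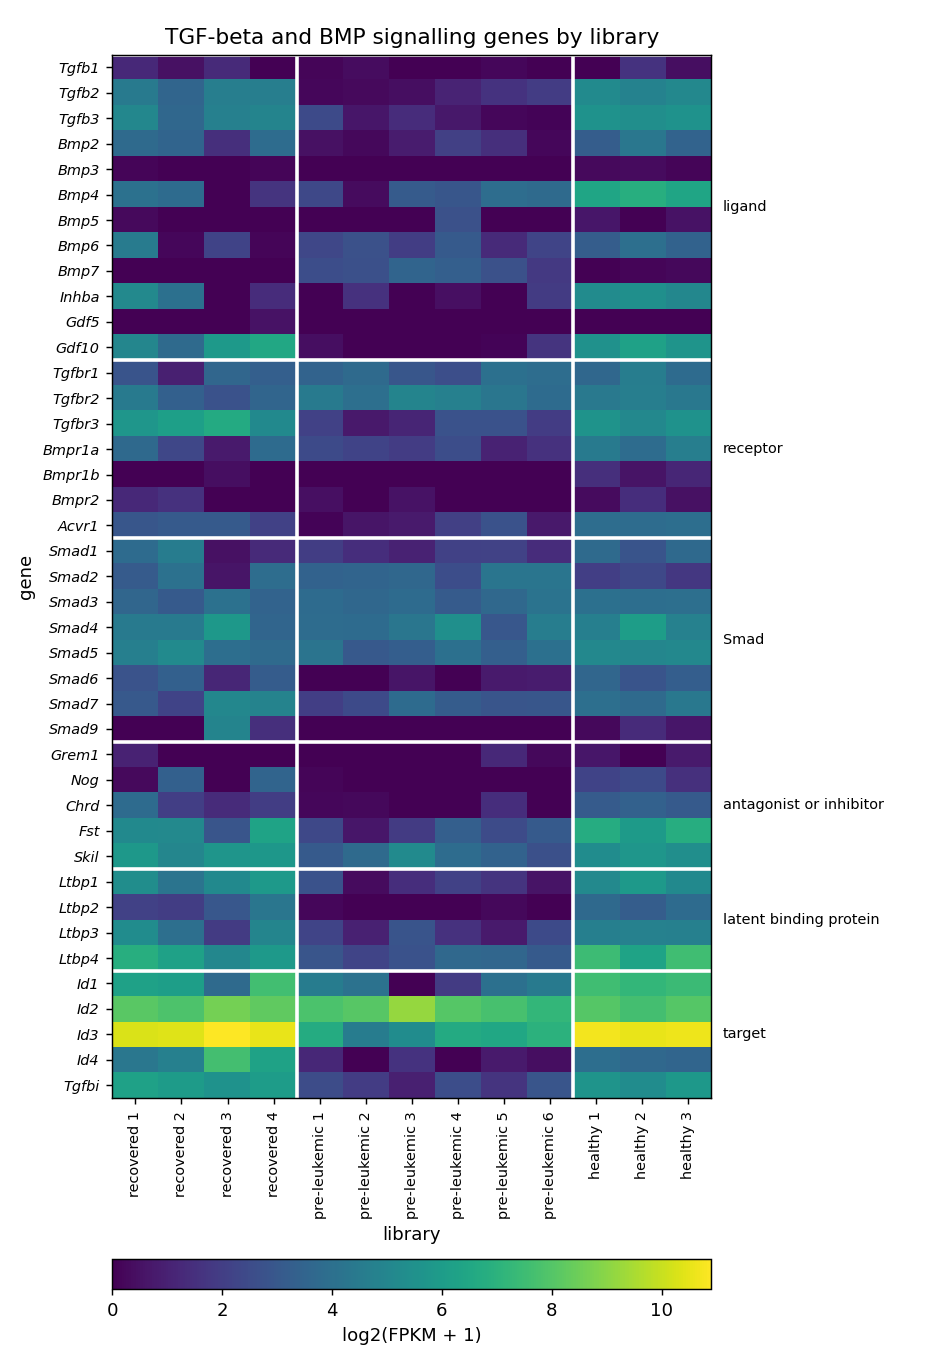
Level of each of the 41 genes (rows, grouped by role) in each of the 13 libraries (columns), as log2(FPKM + 1). The pre-leukemic columns are darker than all others for Tgfb2, Tgfb3, Gdf10, Ltbp1, Ltbp2, Ltbp4, Id3 and Id4, among other genes. Bmp7 is brighter there, and Id2, Smad3 and Tgfbr2 keep a similar shade in the 3 groups.

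In pre-leukemic against healthy samples, Tgfb2, Tgfb3, Gdf10, the 4 latent binding protein genes, Id1, Id3 and Id4 were among the genes that fell, and Bmp7 was the only member that rose. In all, 1 of the 36 tested members was higher and 21 were lower by limma with Benjamini-Hochberg adjusted p under 0.05, against 14.2% higher and 13.1% lower among all 13118 genes tested. The median difference was -2.74 for the tested members and 0.20 for all genes, on the log2(FPKM + 1) scale used for every difference here. That scale understates changes of low genes, and members passed the filter partly through the groups where they were high, so these counts are a description. In the same libraries 16 of 16 pan-leukocyte markers and 8 of 8 plasma cell markers rose (median differences 4.35 and 5.85), and 7 of 8 tested stromal markers fell while Ly6a rose. The part of these cells in the members' differences was not tested, and in bulk samples fewer cells of a type and less RNA per cell cannot be told apart. With each library scaled to the same sum (TPM), the median of all genes was -1.12 and that of the members -3.62, with 1 member higher and 31 lower of 36, against 6.08% higher and 33.1% lower among all genes on that scale. Without healthy 2, which leaves 1 healthy sample assumed to vary like the other groups, 1 member was higher and 12 were lower of 33 tested, against 5.79% higher and 6.4% lower among all genes.

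Recovered against pre-leukemic samples asked whether levels differed after treatment of such mice. Most of the genes named above as lower in pre-leukemic samples were higher in recovered samples, and Bmp7 was listed at 0. Of the 36 tested members, 19 were higher and 1 was lower (limma), against 14.8% higher and 25.1% lower among all genes tested. The median difference was 1.83 for the tested members and -0.41 for all genes. The sign for all genes depended on the scaling, since on the TPM scale the medians were 2.50 and 0.62, with 26 members higher and 1 lower of 36, against 29.5% higher and 9.21% lower among all genes. The pre-leukemic libraries serve both comparisons, so the opposite signs are not independent observations. The 16 pan-leukocyte markers fell (median -4.99), and their summed level was 108.6 to 459 FPKM in recovered, 3524 to 5004 in pre-leukemic and 198.5 to 221.4 in healthy libraries. Plasma cell markers summed to 78.03 to 164, 46600 to 72830 and 144.2 to 179.5 FPKM, with Prdm1 and Tnfrsf17, which define that cell type, at 0 in every recovered and healthy library. Of 8 tested stromal markers, 7 were higher in recovered than in pre-leukemic samples and Ly6a was lower. Stromal markers without Ly6a summed to 708.4 to 1112 FPKM in recovered, 18.66 to 144.8 in pre-leukemic and 624.7 to 854.1 in healthy libraries. With Ly6a, which had the highest level of the list, the sums were 3033 to 3480, 3224 to 6520 and 1957 to 2014 FPKM, highest in pre-leukemic libraries by median.

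Recovered against healthy samples gave no call among the members by limma, against 0.518% higher and 1.99% lower among all genes tested. At an unadjusted limma p under 0.05, 1 of 36 members was higher (Id4) and 2 were lower (Bmp4 and Inhba). Among all 13118 genes tested, 752 were higher and 1409 lower at that threshold. The median difference was -0.65 for the tested members and -0.08 for all genes. With 2 healthy samples the intervals are wide, and a missing call does not show that recovered and healthy levels were alike. Among marker lists, 4 of 4 tested erythroid markers were higher in recovered than in healthy samples, with a summed level of 1650 to 2638 FPKM in recovered, 0 to 6.511 in pre-leukemic and 32.99 to 46.11 in healthy libraries. Chondrocyte markers, of which 2 of 6 were lower in recovered than in healthy samples, summed to 616.9 to 978.7, 1.753 to 6.731 and 3176 to 3217 FPKM. Osteoblast markers summed to 1920 to 2435, 79.65 to 124.7 and 6192 to 7722 FPKM, with 0 of 8 called in recovered against healthy samples. In recovered against pre-leukemic samples 6 of the 8 were higher and 1 was lower. Bglap and Sp7 were at 0 in the pre-leukemic libraries. Runx2 of the same list went the other way, at 2.91 to 4.88 FPKM in recovered and 15.2 to 49.3 in pre-leukemic libraries. Alpl overlapped between these groups, at 5.61 to 19.7 and 5.85 to 8.92 FPKM. The part of these cells in the members' differences was not tested.

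**Figure D2:**
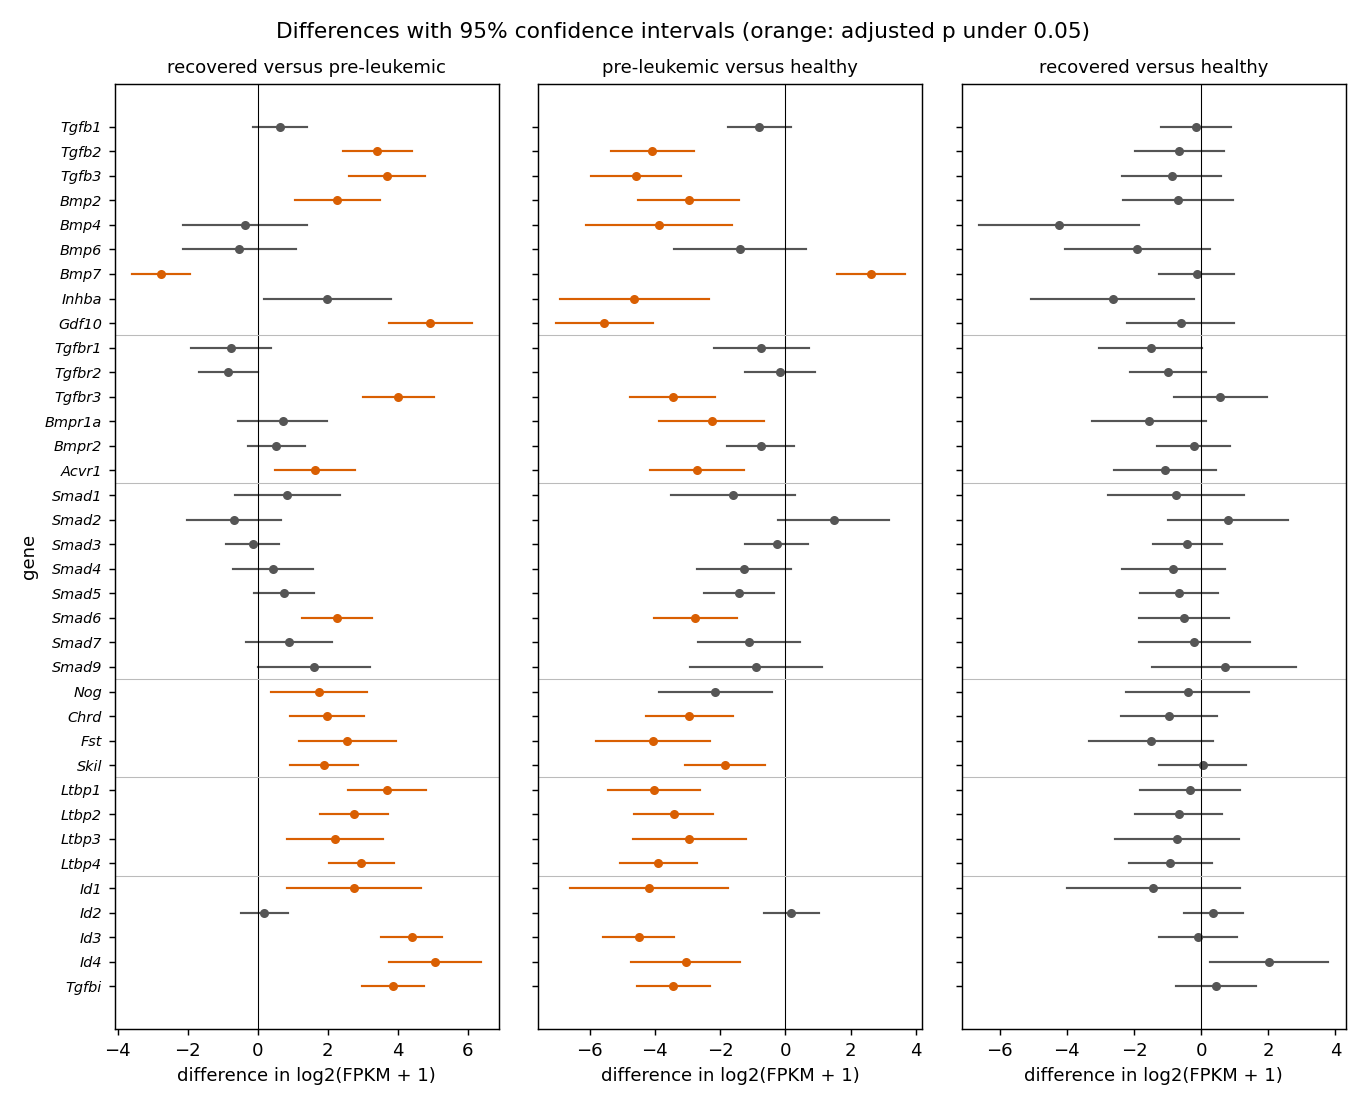
Difference in log2(FPKM + 1) with its 95% confidence interval for the 36 tested members in recovered versus pre-leukemic, pre-leukemic versus healthy and recovered versus healthy samples, grouped by role; orange marks an adjusted p under 0.05. Most orange intervals lie right of 0 in recovered versus pre-leukemic and left of 0 in pre-leukemic versus healthy samples, with Bmp7 on the other side in both, and no interval is orange in recovered versus healthy samples.

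Among the 9 tested ligand genes, 1 rose and 6 fell in pre-leukemic against healthy samples, and 4 rose and 1 fell in recovered against pre-leukemic samples. Over all genes tested, 14.2% rose and 13.1% fell in the first comparison, and 14.8% rose and 25.1% fell in the second. Gdf10 (GRCm38 chromosome 14, 33923587 to 33937983), a secreted relative of BMP3, was at 31.1, 12.5, 57.3 and 93.0 FPKM in recovered libraries, at 0, 0.033 and 2.11 FPKM (lowest, median and highest) in pre-leukemic libraries and at 45.0, 73.8 and 48.4 FPKM in healthy libraries. Every pre-leukemic library lay below the others, by -5.54 ± 0.70 against healthy (SE; limma adjusted p = 4.8e-05) and with recovered higher by 4.94 ± 0.55 (adjusted p = 8.15e-06). Tgfb2 (chromosome 1, 186622792 to 186705989) was at 21.3, 10.9, 24.0 and 24.0 FPKM in recovered, at 0.137, 0.731 and 2.81 FPKM in pre-leukemic and at 35.9, 27.2 and 33.2 FPKM in healthy libraries. It fell in pre-leukemic samples (-4.07 ± 0.59, adjusted p = 0.000153) and was higher in recovered than in pre-leukemic samples (3.42 ± 0.47, adjusted p = 4.87e-05). Tgfb3 (chromosome 12, 86056745 to 86079041) was at 32.5, 11.4, 26.2 and 29.5 FPKM in recovered, at 0.0692, 0.592 and 4.45 FPKM in pre-leukemic and at 45.8, 41.5 and 45.8 FPKM in healthy libraries. Its differences were -4.57 ± 0.65 (adjusted p = 0.000126) and 3.69 ± 0.51 (adjusted p = 5.74e-05) in the same comparisons, again with no overlap. For both genes all 4 recovered libraries also lay below all 3 healthy ones, but the differences of -0.65 and -0.88 did not pass (adjusted p = 0.682 and 0.585).

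Tgfb1, the isoform abundant in platelets and many leukocytes, was low in every group. It lay at 0 to 1.47 FPKM in recovered, 0 to 0.278 in pre-leukemic and 0 to 2.05 in healthy libraries, and was listed at 0 in 1, 3 and 1 of them. An exact 0 in FPKM can be a failed estimate; of the genes with at least 20 FPKM in the 12 other libraries, 2 were listed at 0 in recovered 3, 1 in pre-leukemic 5 and none in the other libraries. Tgfb1 made 1.79 ± 1.28% of the summed FPKM of Tgfb1, Tgfb2 and Tgfb3 in recovered samples (SD, n = 4), 5.87 ± 10.4% in pre-leukemic samples (n = 6) and 1.55 ± 1.91% in healthy samples (n = 2). The pre-leukemic mean rests on pre-leukemic 2, at 26.5% of a sum that reached 1.048 to 4.684 FPKM in that group. Without that library the difference of pre-leukemic against healthy samples was 0.187 percentage points, against 4.32 with it, and that of recovered against pre-leukemic samples was 0.0492 points, against -4.08 with it. None of the 3 differences passed an exact permutation test (two-sided p = 1.0 for pre-leukemic against healthy, 0.657 for recovered against pre-leukemic and 0.933 for recovered against healthy; adjusted p = 1.0 for each). The smallest p these designs allow is 0.0714, 0.00952 and 0.133.

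The BMP ligands differed among themselves. Bmp7 (chromosome 2, 172868012 to 172940321), an osteogenic ligand, was listed at 0 in all 4 recovered libraries, lay at 2.47, 5.38 and 10.3 FPKM in pre-leukemic libraries and at 0, 0.101 and 0.186 FPKM in healthy ones. Every pre-leukemic library was above every other library, and limma called it in pre-leukemic against healthy (2.62 ± 0.49, adjusted p = 0.00109) and in recovered against pre-leukemic samples (adjusted p = 6.27e-05). Bmp2, an inducer of bone formation, was at 12.7, 10.4, 1.75 and 13.4 FPKM in recovered, at 0.131, 0.579 and 3.21 FPKM in pre-leukemic and at 8.18, 19.1 and 9.99 FPKM in healthy libraries. It fell by 2.96 in pre-leukemic against healthy samples (SE 0.72, adjusted p = 0.00689; 0.124 without healthy 2) and was higher in recovered than in pre-leukemic samples (2.28 ± 0.57, adjusted p = 0.00566), although recovered 3 lay inside the pre-leukemic range. Bmp4 (chromosome 14, 46383520 to 46390669), a regulator of mesoderm and bone, was low in both of the other groups, at 0 to 16.0 FPKM in recovered and 0.255 to 14.1 FPKM in pre-leukemic libraries, and at 83.5 to 112 FPKM in healthy ones. The fall in pre-leukemic samples passed (-3.88 ± 1.05, adjusted p = 0.0129; 0.125 without healthy 2 and 0.0807 with a pseudocount of 0.1). Recovered against healthy gave a difference of similar size that missed the threshold (-4.23 ± 1.11, 95% interval -6.61 to -1.85, adjusted p = 0.063), and passed without recovered 1, recovered 2 or pre-leukemic 2 (adjusted p = 0.0278, 0.0453 and 0.0449) and on the TPM scale (0.0306). Of 21 alternatives 5 called it, and its adjusted p lay between 0.0173 and 0.484, the highest being that without healthy 2.

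Bmp6, a ligand that also governs iron balance through the liver, passed in no comparison on the FPKM scale, and on the TPM scale was called lower in pre-leukemic than in healthy samples (-2.71, adjusted p = 0.0494). It was at 22.5 FPKM in recovered 1 and at 0.101 to 3.55 FPKM in the other recovered libraries, at 1.45 to 7.59 FPKM in pre-leukemic and 8.24 to 14.8 FPKM in healthy libraries. Without recovered 1 it was lower in recovered than in healthy samples (-2.83, adjusted p = 0.0412), against -1.90 (adjusted p = 0.38) with it. Inhba (chromosome 13, 16011851 to 16031621), the activin A subunit gene, was at 34.4, 15.4, 0 and 1.63 FPKM in recovered, at 0, 0.185 and 2.69 FPKM in pre-leukemic and at 37.0, 41.5 and 31.8 FPKM in healthy libraries. Recovered 1 and 2 lay above all pre-leukemic libraries and recovered 3 and 4 within their range. Inhba fell in pre-leukemic against healthy samples (-4.63 ± 1.07, adjusted p = 0.00496; 0.0625 without healthy 2). Recovered against pre-leukemic did not pass (2.0 ± 0.84, adjusted p = 0.0731) and did without recovered 3 (2.88, adjusted p = 0.00813).

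As shares of the summed FPKM of the 6 BMP ligand genes, which do not move with a library's scaling, Bmp4 made 0 to 55.0% in recovered, 2.26 to 66.7% in pre-leukemic and 76.7 to 82.9% in healthy libraries. Bmp7 made 0%, 12.9 to 47.3% and 0 to 0.177%. Their sum was 5.301 to 51.42 FPKM in recovered, 11.3 to 31.79 in pre-leukemic and 100.7 to 146.7 in healthy libraries. The families in which shares were taken were chosen with the values known, and no test was made.

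**Figure D3:**
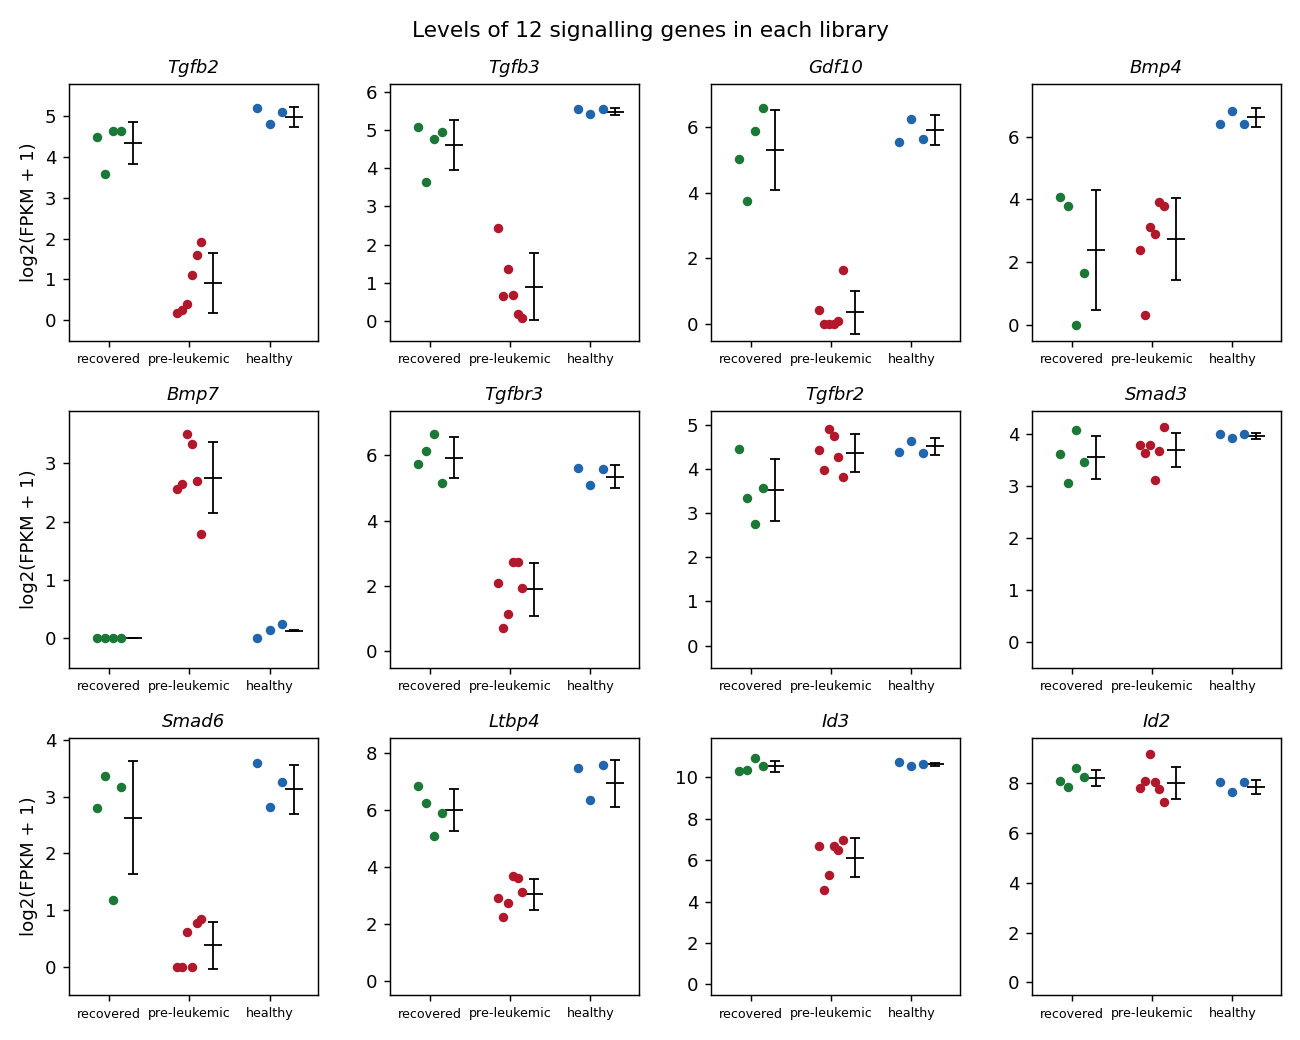
Level of 12 members as log2(FPKM + 1) in each library (points) for recovered, pre-leukemic and healthy groups, with the group mean and SD beside them (n = 4, 6 and 2, healthy 1 and 3 averaged). Tgfb2, Tgfb3, Gdf10, Tgfbr3, Smad6, Ltbp4 and Id3 are lowest in the pre-leukemic libraries, Bmp7 is highest there, Bmp4 is highest in healthy libraries, and Tgfbr2, Smad3 and Id2 overlap between groups.

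Of the 6 tested receptor genes, 3 fell in pre-leukemic against healthy samples and 2 rose in recovered against pre-leukemic samples. Over all genes tested, 13.1% fell in the first comparison and 14.8% rose in the second. Tgfbr3 (chromosome 5, 107106570 to 107289629) encodes betaglycan, a co-receptor that presents TGF-beta to the signalling receptors. It was at 52.2, 69.5, 99.2 and 34.7 FPKM in recovered, at 0.655, 3.03 and 5.69 FPKM in pre-leukemic and at 47.7, 33.3 and 46.4 FPKM in healthy libraries. The pre-leukemic libraries lay apart from both other groups, which overlapped (-3.45 ± 0.61, adjusted p = 0.000724, and 4.03 ± 0.48, adjusted p = 1.48e-05). The kinase receptor genes for TGF-beta did not pass in any comparison on the FPKM scale. Tgfbr2, the type II receptor gene, lay at 5.73 to 20.8 FPKM in recovered, 13.1 to 29.1 in pre-leukemic and 19.7 to 24.1 in healthy libraries (pre-leukemic against healthy -0.15, 95% interval -1.22 to 0.92, adjusted p = 0.852). The type I receptor gene Tgfbr1 lay at 0.94 to 11.2, 5.07 to 15.5 and 11.5 to 23.6 FPKM (-0.73, interval -2.18 to 0.72, adjusted p = 0.453). On the TPM scale both were called lower in pre-leukemic than in healthy samples (-1.73 and -2.21, adjusted p = 0.0298 and 0.0345). Tgfbr2 was called lower in recovered than in pre-leukemic samples without recovered 1 (-1.14, adjusted p = 0.0306) and with an equal sum without immunoglobulin genes (-1.14, adjusted p = 0.0403), against -0.83 (adjusted p = 0.107) with all libraries and 0.53 (adjusted p = 0.39) on the TPM scale. Within a library, Tgfbr3 made 63.6 to 87.3% of the 3 TGF-beta receptor genes' FPKM in recovered, 2.35 to 15.4% in pre-leukemic and 41.1 to 60.3% in healthy libraries, 3 ranges that do not overlap.

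Acvr1, a type I receptor gene of the BMP branch, was at 6.55, 7.51, 7.61 and 3.31 FPKM in recovered, at 0.0721, 0.681 and 5.76 FPKM in pre-leukemic and at 13.9, 13.4 and 14.6 FPKM in healthy libraries. It fell in pre-leukemic samples (-2.72 ± 0.67, adjusted p = 0.00759; 0.0703 without healthy 2) and was higher in recovered than in pre-leukemic samples (1.63 ± 0.53, adjusted p = 0.0243), a call lost without recovered 2, pre-leukemic 1 or pre-leukemic 2 (adjusted p = 0.0534, 0.055 and 0.0523). Recovered 4 lay inside the pre-leukemic range. Bmpr1a, another BMP type I receptor gene, was at 12.4, 4.05, 0.723 and 13.1 FPKM in recovered, at 1.08, 3.16 and 5.0 FPKM in pre-leukemic and at 21.1, 13.7 and 24.1 FPKM in healthy libraries. Its fall in pre-leukemic samples (-2.26 ± 0.75, adjusted p = 0.0362) was not called without healthy 2 (0.123), without pre-leukemic 2, 3, 5 or 6 (0.0522 to 0.0641) or with a pseudocount of 0.1 (0.0699). Bmpr2, the BMP type II receptor gene, reached at most 1.93 FPKM in any library, with differences of -0.76 ± 0.48 and 0.54 ± 0.38 (adjusted p = 0.262 and 0.272).

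On the FPKM scale 1 of the 8 Smad genes was called in each of these comparisons. Among all genes tested on that scale, 13.1% were lower in pre-leukemic against healthy and 14.8% higher in recovered against pre-leukemic samples. On the TPM scale Smad1, Smad3, Smad4, Smad5 and Smad7 were called lower in pre-leukemic than in healthy samples as well. Of all genes 33.1% were called lower in that comparison on the TPM scale. The gene called on both scales was Smad6 (chromosome 9, 63953076 to 64022059), an inhibitor of BMP signalling and itself a BMP target. It was at 5.99, 9.30, 1.27 and 8.05 FPKM in recovered, at 0, 0.267 and 0.796 FPKM in pre-leukemic and at 11.1, 6.05 and 8.58 FPKM in healthy libraries. All pre-leukemic libraries lay below the rest (-2.76 ± 0.59, adjusted p = 0.00301, and recovered higher by 2.26 ± 0.47, adjusted p = 0.00155). Smad7, the other inhibitory Smad, did not pass, at 3.53 to 31.8 FPKM in recovered, 3.09 to 13.2 in pre-leukemic and 12.7 to 19.6 in healthy libraries (-1.11 ± 0.73, adjusted p = 0.282, and 0.91 ± 0.58, adjusted p = 0.222). On the TPM scale Smad7 was called lower in pre-leukemic than in healthy samples (-2.58, adjusted p = 0.00874) and higher in recovered than in pre-leukemic samples (2.16, adjusted p = 0.00533). Leaving out recovered 2 gave this second call on the FPKM scale too (1.44, adjusted p = 0.0456).

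Of the receptor-activated Smads, Smad3 of the TGF-beta branch had the narrowest spread, at 7.38 to 15.9 FPKM in recovered, 7.74 to 16.7 in pre-leukemic and 14.1 to 15.1 in healthy libraries. The difference of pre-leukemic against healthy samples was -0.27 (95% interval -1.22 to 0.69, adjusted p = 0.697), and on the TPM scale -1.78 (adjusted p = 0.0192), where recovered against pre-leukemic samples also passed (1.17, adjusted p = 0.045). Smad2 of the same branch lay at 0.527 to 15.9, 4.88 to 18.1 and 2.42 to 4.09 FPKM, so that all 6 pre-leukemic libraries were above the 3 healthy ones, without passing (1.49 ± 0.79, adjusted p = 0.182; 0.042 without recovered 3). In the BMP branch, Smad1 lay at 0.405 to 23.1, 1.09 to 3.41 and 6.03 to 12.5 FPKM (-1.60 ± 0.89, adjusted p = 0.202; -2.79 and 0.034 on the TPM scale), and Smad5 at 12.5 to 36.5, 7.35 to 17.5 and 31.5 to 33.5 FPKM (-1.41 ± 0.51, adjusted p = 0.0522). Smad5 was called lower in pre-leukemic samples on the TPM scale (adjusted p = 0.00143), with quantile normalization (0.0239) and without recovered 2, 3 or 4 (0.0339, 0.0375 and 0.0415), and higher in recovered than in pre-leukemic samples on the TPM scale (2.09, adjusted p = 0.00263). Smad9 was listed at 0 in all pre-leukemic libraries and at 29.4 FPKM in recovered 3, against 0 to 1.81 FPKM in the other recovered and 0.168 to 1.57 FPKM in healthy libraries (adjusted p = 0.1 for recovered against pre-leukemic, and 0.0431 and 0.0435 without recovered 1 or recovered 2). Smad4, the shared partner, lay at 10.8 to 55.6, 6.73 to 41.9 and 24.9 to 66.5 FPKM (-1.26 ± 0.67, adjusted p = 0.182). On the TPM scale it was called lower in pre-leukemic than in healthy samples (-2.84, adjusted p = 0.00228) and higher in recovered than in pre-leukemic samples (1.80, adjusted p = 0.00863). Smad1, Smad5 and Smad9 together made 39.9 to 72.9% of the 5 receptor-activated Smads' FPKM in recovered, 28.5 to 59.3% in pre-leukemic and 68.2 to 72.7% in healthy libraries.

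Antagonist and inhibitor genes fell in 3 of 4 tested cases in pre-leukemic against healthy samples and rose in 4 of 4 in recovered against pre-leukemic samples. The shares over all genes tested were 13.1% lower in the first comparison and 14.8% higher in the second. Fst (chromosome 13, 114452290 to 114458951) encodes follistatin, which binds activin. It was at 35.1, 33.7, 6.25 and 80.0 FPKM in recovered, at 0.6, 4.44 and 8.77 FPKM in pre-leukemic and at 107, 61.0 and 110 FPKM in healthy libraries. It fell in pre-leukemic samples (-4.05 ± 0.82, adjusted p = 0.00198) and was higher in recovered than in pre-leukemic samples (2.56 ± 0.65, adjusted p = 0.00602), with recovered 3 inside the pre-leukemic range. Chrd, the gene of the BMP binder chordin, was at 13.1, 3.10, 1.53 and 2.91 FPKM in recovered, at 0, 0.0631 and 1.72 FPKM in pre-leukemic and at 7.79, 9.45 and 7.54 FPKM in healthy libraries (-2.94 ± 0.63, adjusted p = 0.00286, and 1.98 ± 0.49, adjusted p = 0.00565). Recovered 3 overlapped the pre-leukemic range for this gene too. Nog, which encodes noggin, was at 0.203, 9.06, 0 and 10.6 FPKM in recovered, at 0, 0 and 0.113 FPKM in pre-leukemic and at 3.64, 4.42 and 1.85 FPKM in healthy libraries. The recovered libraries thus fell into high and near-0 pairs, and the call in recovered against pre-leukemic samples (1.76 ± 0.64, adjusted p = 0.0403) was lost without recovered 2 (1.24, 0.134), recovered 4 (1.17, 0.135) or any 1 pre-leukemic library (0.0591 to 0.0634). Pre-leukemic against healthy did not pass for Nog (-2.15 ± 0.80, adjusted p = 0.0622; 0.0245 on the TPM scale). Skil encodes SnoN, a nuclear repressor of Smad complexes and a target of TGF-beta. It was at 55.9, 31.1, 50.9 and 53.9 FPKM in recovered, at 5.35, 11.3 and 35.9 FPKM in pre-leukemic and at 38, 51.7 and 40.3 FPKM in healthy libraries. The fall in pre-leukemic samples (-1.85 ± 0.57, adjusted p = 0.0259; 0.213 without healthy 2) and the higher level in recovered samples (1.91 ± 0.45, adjusted p = 0.00394) were called although pre-leukemic 3 lay above recovered 2.

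The 4 latent binding protein genes were called in both of these comparisons. Of all genes tested, 13.1% fell in pre-leukemic against healthy and 14.8% rose in recovered against pre-leukemic samples. Ltbp1, Ltbp3 and Ltbp4 encode proteins that tether latent TGF-beta to the matrix, while Ltbp2 encodes a fibrillin-binding relative that does not hold it. Ltbp4 (chromosome 7, 27305136 to 27337692) was at 113, 74.0, 32.4 and 57.4 FPKM in recovered, at 3.67, 6.97 and 11.7 FPKM in pre-leukemic and at 175, 79.5 and 188 FPKM in healthy libraries. Ltbp1 (chromosome 17, 75005568 to 75392512) was at 40.1, 17.6, 34.7 and 58.9 FPKM in recovered, at 0.238, 1.90 and 5.64 FPKM in pre-leukemic and at 33.8, 56.5 and 34.7 FPKM in healthy libraries. For both, the pre-leukemic libraries lay below all others. Ltbp4 fell by 3.89 (SE 0.55, adjusted p = 0.000122) and Ltbp1 by 4.03 (SE 0.66, adjusted p = 0.000431) in pre-leukemic against healthy samples. In recovered against pre-leukemic samples they were higher by 2.96 ± 0.43 (adjusted p = 9.02e-05) and 3.69 ± 0.52 (adjusted p = 6.96e-05). Ltbp2 was at 3.28, 2.96, 6.79 and 18.4 FPKM in recovered, at 0, 0 and 0.189 FPKM in pre-leukemic and at 12.2, 8.32 and 13.2 FPKM in healthy libraries, again apart (-3.42 ± 0.57, adjusted p = 0.000489, and 2.76 ± 0.45, adjusted p = 0.000248). Ltbp3 was at 38, 15, 2.73 and 30.0 FPKM in recovered, at 0.729, 2.88 and 6.11 FPKM in pre-leukemic and at 25.2, 26.4 and 26.1 FPKM in healthy libraries. Here recovered 3 lay inside the pre-leukemic range (-2.94 ± 0.81, adjusted p = 0.0147, or 0.117 without healthy 2, and 2.22 ± 0.64, adjusted p = 0.0136).

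Of the 5 targets, 4 fell in pre-leukemic against healthy samples and 4 rose in recovered against pre-leukemic samples, and Id2 was the exception in both. The shares over all genes tested were 13.1% lower in the first comparison and 14.8% higher in the second. Id proteins lack a DNA-binding region and hold back helix-loop-helix factors that drive differentiation. Id3 (chromosome 4, 136143497 to 136145755) was at 1263, 1312, 1917 and 1499 FPKM in recovered, at 23.0, 95 and 127 FPKM in pre-leukemic and at 1693, 1504 and 1582 FPKM in healthy libraries. Recovered and healthy libraries overlapped far above the pre-leukemic ones (-4.49 ± 0.51, adjusted p = 2.19e-05, and 4.41 ± 0.40, adjusted p = 1.37e-06; recovered against healthy -0.09, 95% interval -1.25 to 1.07). Id1 (chromosome 2, 152736251 to 152737410) was at 75.4, 68.4, 12.6 and 192 FPKM in recovered, at 0, 15.7 and 23.2 FPKM in pre-leukemic and at 188, 148 and 170 FPKM in healthy libraries. Recovered 3 lay inside the pre-leukemic range. Id1 fell in pre-leukemic samples (-4.17 ± 1.13, adjusted p = 0.0132; 0.0953 without healthy 2 and 0.0502 with a pseudocount of 0.1) and was higher in recovered than in pre-leukemic samples (2.75 ± 0.89, adjusted p = 0.0249), a call lost without recovered 1, 2 or 4 (0.0575, 0.0526 and 0.0835), with a pseudocount of 0.1 (0.0593) and with no filter (0.0564).

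Id4 (chromosome 13, 48261228 to 48266026) was at 18.8, 25.7, 198 and 76.6 FPKM in recovered, at 0, 0.519 and 2.04 FPKM in pre-leukemic and at 14.4, 11.8 and 10.8 FPKM in healthy libraries. All 4 recovered libraries lay above the healthy ones, which lay above the pre-leukemic ones. It fell in pre-leukemic samples (-3.05 ± 0.78, adjusted p = 0.00909; 0.0802 without healthy 2) and was higher in recovered than in pre-leukemic samples (5.07 ± 0.61, adjusted p = 1.75e-05), while recovered against healthy did not pass (2.02 ± 0.82, 95% interval 0.26 to 3.78, adjusted p = 0.234). Id2 (chromosome 12, 25093799 to 25097140) was at 274, 229, 394 and 306 FPKM in recovered, at 150, 244 and 573 FPKM in pre-leukemic and at 262, 198 and 264 FPKM in healthy libraries. The 3 groups overlapped, with a difference of 0.18 for pre-leukemic against healthy samples (95% interval -0.66 to 1.02, adjusted p = 0.771). That statement depends on the scaling, since on the TPM scale Id2 was called lower in pre-leukemic samples (-1.49, adjusted p = 0.0208) and higher in recovered than in pre-leukemic samples (1.66, adjusted p = 0.00232). Its share of the 4 Id genes, which no scaling changes, was 14.0 to 16.8% in recovered, 50.3 to 93.4% in pre-leukemic and 10.6 to 13% in healthy libraries. Id2 is also known as a gene of lymphoid and myeloid cells, and Ptprc was higher in every pre-leukemic library than in the others; the part of such cells was not tested.

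Tgfbi (chromosome 13, 56609523 to 56639562), a secreted matrix protein gene induced by TGF-beta, was at 75.1, 62.3, 45.7 and 64.8 FPKM in recovered, at 0.938, 3.80 and 6.28 FPKM in pre-leukemic and at 49.6, 38.3 and 55.5 FPKM in healthy libraries. Recovered and healthy libraries overlapped, and pre-leukemic ones lay below both (-3.43 ± 0.53, adjusted p = 0.000246, and 3.87 ± 0.42, adjusted p = 5.62e-06).

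**Figure D4:**
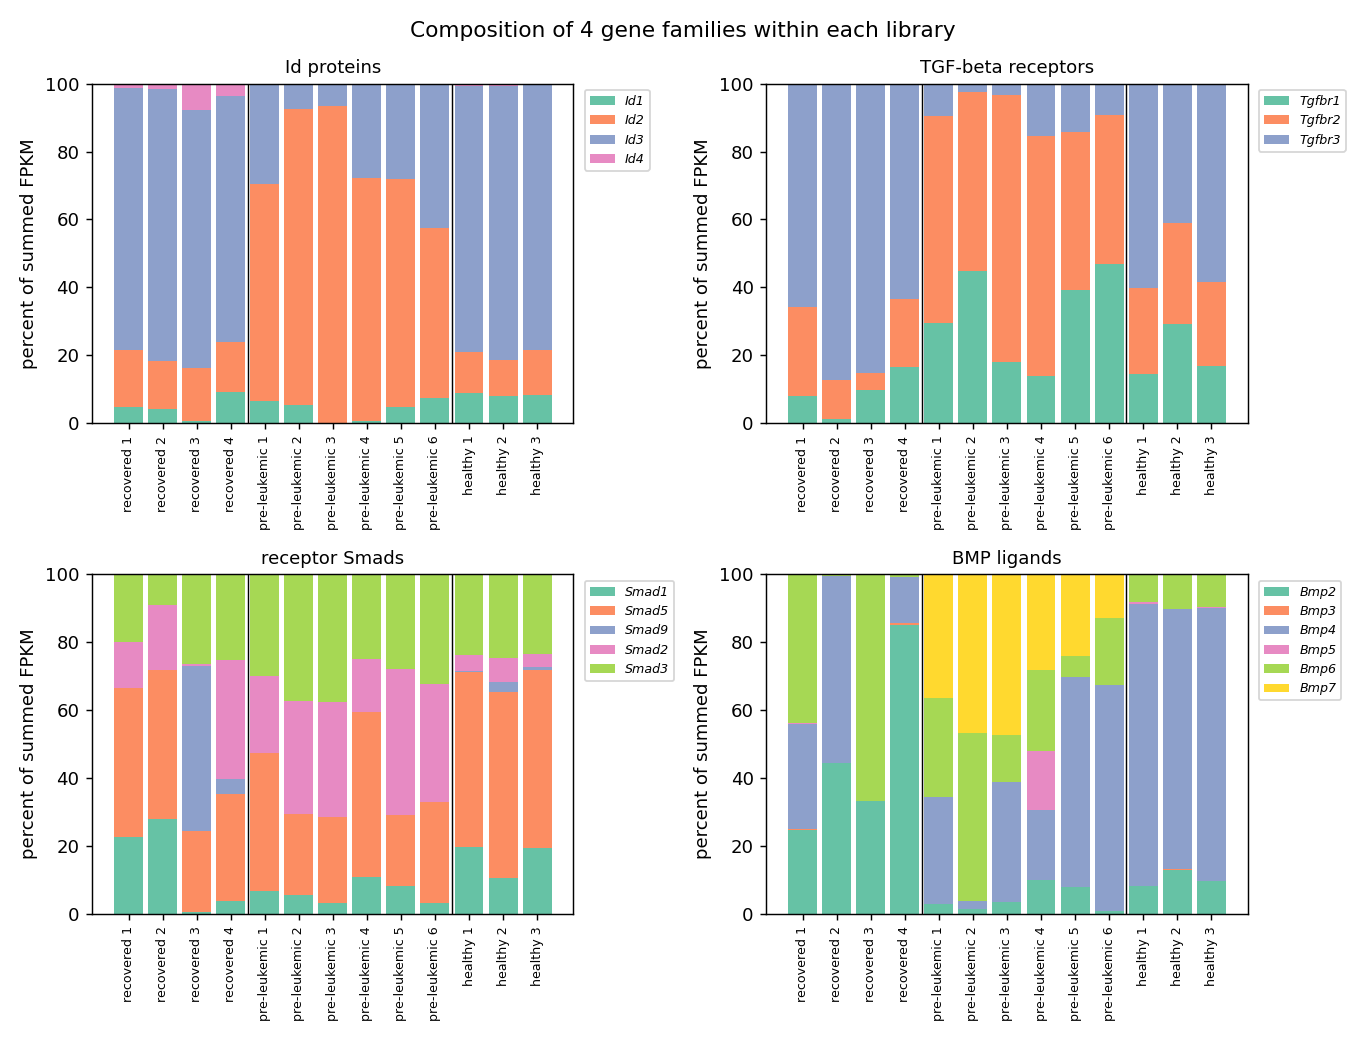
Percent of a family's summed FPKM that each gene makes in each library, for the 4 Id genes, the 3 TGF-beta receptor genes, the 5 receptor-activated Smads and the 6 BMP ligand genes. In pre-leukemic libraries Id2 takes 50.3 to 93.4% of the Id sum and Tgfbr3 2.35 to 15.4% of the receptor sum, and Bmp7 appears at 12.9 to 47.3% of the BMP sum.

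The bases before the start of Smad6, Id4 and Id2 are shown because the first pair moved with the group and the last did not on the FPKM scale. They come from RefSeq on GRCm38.p6 and read 5' to 3' on the gene's strand; capitals mark GGCGCC, a GC-rich element that Smad1 and Smad5 can bind. The Smad6 window (chr9:64022060-64022309, minus strand) and the Id4 window (chr13:48260866-48261115, plus strand) are 250 bases long. For Id2 (chr12:25096254-25096342, minus strand) the 89 bases of its window outside annotated exons are given. They lie within the span of the longest annotated form of the gene. The 161 bases of the Id2 window next to the start lay in annotated exons and were left out. The printed Id2 stretch thus does not reach the start, unlike those of Smad6 and Id4. Id4 was chosen after its values were seen.
Smad6: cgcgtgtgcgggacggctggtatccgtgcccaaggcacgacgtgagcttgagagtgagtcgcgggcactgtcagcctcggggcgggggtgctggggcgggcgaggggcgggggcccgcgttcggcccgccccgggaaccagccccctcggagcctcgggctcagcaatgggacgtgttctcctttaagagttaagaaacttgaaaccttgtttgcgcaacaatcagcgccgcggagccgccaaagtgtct
Id4: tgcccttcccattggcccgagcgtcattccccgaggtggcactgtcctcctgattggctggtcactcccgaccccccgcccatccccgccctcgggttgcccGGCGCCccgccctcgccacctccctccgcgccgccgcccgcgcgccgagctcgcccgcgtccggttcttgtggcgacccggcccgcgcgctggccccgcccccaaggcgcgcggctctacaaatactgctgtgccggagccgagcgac
Id2: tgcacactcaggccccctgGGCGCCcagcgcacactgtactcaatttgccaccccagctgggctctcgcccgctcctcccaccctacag
Both strands of the 250 bases before the start were searched for 3 motifs in the 28 members with a RefSeq entry, 36 windows in all. GTCTAGAC, a palindromic Smad box, was in none of them and in 0.167% of all 32851 windows. CAGACA, part of the CAGA box, was in windows of 5 members and in 17.1% of all windows. GGCGCC was in windows of 11 members and in 9.59% of all windows. The counts are by member, some with more than 1 window, and the percentages by window, so they are unlike measures. Several windows lay partly in annotated exons, and those of Bmpr2, Acvr1, Id3 and Bmp6 lay there wholly. As printed above, Id4 and Id2 hold GGCGCC once each and Smad6 holds none of the 3 motifs. A match is a description of the letters and not a binding site.

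Spread between libraries was largest in the recovered group. The median SD of log2(FPKM + 1) over the 36 tested members was 1.027 in recovered, 0.633 in pre-leukemic and 0.285 in healthy libraries, against 0.92, 0.543 and 0.346 over all genes tested. With healthy 1 and 3 averaged, the healthy values were 0.317 for members and 0.374 for all genes (n = 2). Recovered 3 was the lowest of the 4 recovered libraries for 15 members, among them Bmp2, Bmp4, Inhba, Bmpr1a, Smad1, Smad2, Smad6, Fst, Ltbp3, Ltbp4 and Id1, and the highest for 12, among them Tgfbr3, Smad4, Smad7, Smad9, Id2, Id3 and Id4. It also had the lowest estimated depth of the 13 libraries, with 3 reads on a 1 kb transcript worth 1.91 FPKM, against 1.05 to 1.3 FPKM in the other recovered libraries. Without it, 21 members were higher and 1 lower of 34 tested in recovered against pre-leukemic samples, against 16.1% higher and 24.3% lower among all genes. The part of depth in its values was not tested.

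A further 87 genes of the same pathways were listed, of which 60 were tested. In pre-leukemic against healthy samples 2 rose, 28 fell and 30 did neither, with a median of -1.57, against the 14.2% higher and 13.1% lower among all genes. In recovered against pre-leukemic samples 28 rose, 6 fell and 26 did neither (median 1.18), against 14.8% and 25.1% among all genes, and in recovered against healthy samples none was called (median -0.49). The largest block was the extracellular antagonists and activators, of which 2 rose and 10 fell of 16 in pre-leukemic against healthy samples and 11 rose and 2 fell in recovered against pre-leukemic samples. Among intracellular regulators 0 rose and 5 fell of 16 in pre-leukemic samples, and 4 rose and 3 fell in recovered against pre-leukemic samples. The other ligands were mostly unmeasured, with 5 of 21 tested.

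Ctgf, a matricellular protein gene induced by TGF-beta, had the smallest p of these in both comparisons with pre-leukemic samples. It lay at 227 to 613 FPKM in recovered, 2.22 to 4.91 in pre-leukemic and 223 to 281 in healthy libraries (-5.74 ± 0.41, adjusted p = 4.79e-07, and 6.34 ± 0.33, adjusted p = 6.73e-09). Dlx5, a BMP-induced factor of osteoblasts, lay at 61.1 to 197, 0 to 0.517 and 58.8 to 73.1 FPKM (-5.93 ± 0.53, adjusted p = 2.59e-06, and 6.74 ± 0.42, adjusted p = 4.1e-08). Both genes thus had pre-leukemic ranges below both other groups. Dcn, a proteoglycan that binds TGF-beta, fell in pre-leukemic samples (-4.77 ± 0.46, adjusted p = 5.57e-06), and so did Thbs1, an activator of latent TGF-beta (-5.55 ± 0.55, adjusted p = 6.85e-06). Tsku, a secreted BMP antagonist, and Cdkn1a, a cell cycle inhibitor induced by TGF-beta, were higher in recovered than in pre-leukemic samples (4.96 ± 0.41, adjusted p = 5.02e-07, and 4.08 ± 0.38, adjusted p = 1.65e-06). Nrros and Sostdc1 were the 2 that rose in pre-leukemic samples, named after their values were seen. Nrros, which anchors latent TGF-beta on myeloid cells, lay at 0.482 to 5.31, 25.8 to 67.8 and 0 to 2.48 FPKM (4.39 ± 0.65, adjusted p = 0.000184). Sostdc1, a secreted BMP antagonist, was listed at 0 in recovered and healthy libraries and lay at 3.62 to 17.0 FPKM in pre-leukemic ones (adjusted p = 0.000786).

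In recovered against healthy samples the 5 other pathway genes with the smallest p were Thbs1, Runx2, Zfyve9, Gdf15 and Gdf9, and none passed. Thbs1 lay at 47.3 to 78.8 FPKM in recovered, 1.64 to 11.4 in pre-leukemic and 236 to 277 in healthy libraries (recovered against healthy -2.16 ± 0.59, adjusted p = 0.0725). Runx2, the master factor of osteoblasts, lay at 2.91 to 4.88, 15.2 to 49.3 and 13.1 to 33.3 FPKM (-2.15 ± 0.59, adjusted p = 0.0742). Both had recovered ranges entirely below the healthy ranges, as did Bmp4 and, at 0 to 3.27 FPKM in recovered and 5.22 to 7.01 FPKM in healthy libraries, the Smad anchor gene Zfyve9 (adjusted p = 0.102). Gdf15, a stress-induced ligand, lay at 24.3 to 131 FPKM in recovered, 0 to 2.72 in pre-leukemic and 7.52 to 11.2 in healthy libraries (2.38 ± 0.73, adjusted p = 0.11), and Gdf9 was at most 1.22 FPKM in recovered libraries and 0.796 to 8.44 FPKM in healthy ones (-1.87 ± 0.57, adjusted p = 0.113).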

How the data were processed

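The authors deposited 1 table of FPKM values with 33433 entries for 13 libraries of polyadenylated MSC RNA; 1 entry without a name was left out. The submitters' processing notes name TopHat, Cufflinks 2.2.1, Cuffnorm, bcl2fastq and mm10. Not given in the sources used here were the annotation and the library-size method, and the choice of that method can shift the level of all genes in a library dominated by immunoglobulin RNA. Coordinates are from GENCODE for GRCm38 (mm10), matched by symbol.

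Steps between low values of 5240 genes with 1 transcript of at least 800 bp gave an approximate depth, since 65.3 to 86.6% of low values lay within 0.15 log2 of a whole read. No read counts were used. The test was limma 3.58.1 in R 4.3.3 on log2(FPKM + 1), with a mean-variance trend, over 4 recovered, 6 pre-leukemic and 2 healthy samples in 1 fit (9 residual degrees of freedom). A gene entered if 3 or more libraries reached 1 FPKM, which left 13118 genes, and Benjamini-Hochberg adjustment ran over all of them with a threshold of 0.05. The fit takes a spread per gene that is shared by all groups, although the spread differed between the groups. The step was tested on data simulated with such a shared spread, which cannot check that assumption. The Tgfb1 share was compared by exact permutation of samples. Summaries and plots used Python 3.11.15, pandas 2.3.3, scipy 1.17.1 and matplotlib 3.10.9.

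Members and gene lists were chosen with earlier results of these data known. Every member is named, values by library are given for called members, up to 6 a role by smallest p (lowest, median and highest for the 6 pre-leukemic libraries), and up to 5 other pathway genes per comparison are named. A gene that this rule would name is not reported here. The alternatives tried were the TPM scale, quantile normalization, an equal sum without immunoglobulin genes, a pseudocount of 0.1, no filter, a mean of at least 5 FPKM, 13 separate libraries with and without a replicate block, and leaving out each library. RefSeq promoter entries were matched for 28 members. The promoters of Id1, Id3 and Smad7 and the mature TGF-beta proteins, named in the plan, are not shown.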

Additional observations from a re-analysis of the deposited data

Results flagged for a closer look

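Within groups of 4 or 6 libraries, 9 of the 70 sets of values of tested members held 1 library far from the others. The rule flags about 1 in 20 sets, or 3.5, if values are normally distributed. FPKM values are skewed and have a floor at 0, so the count cannot be read as an excess over chance. In the recovered group, Bmp6 was at 22.5 FPKM in recovered 1 against 0.101 to 3.55 in the other libraries, Chrd was at 13.1 FPKM in recovered 1 against 1.53 to 3.1, and Smad9 was at 29.4 FPKM in recovered 3 against 0 to 1.81. In the pre-leukemic group, Tgfb3 was at 4.45 FPKM in pre-leukemic 1 against 0.0692 to 1.59, Gdf10 at 2.11 FPKM in pre-leukemic 6 against 0 to 0.336, and Chrd at 1.72 FPKM in pre-leukemic 5 against 0 to 0.179. Pre-leukemic 3 was high for Skil, at 35.9 FPKM against 5.35 to 13.5, and for Id2, at 573 FPKM against 150 to 272. Nog was at 0.113 FPKM in pre-leukemic 1 and listed at 0 in the others.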

How the results depend on the processing

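The TPM scale raised the members called from 22 to 32 in pre-leukemic versus healthy and from 20 to 27 in recovered versus pre-leukemic. Leaving out 1 library gave 13 to 25 members called in pre-leukemic versus healthy (1580 to 4114 of all genes), 18 to 22 in recovered versus pre-leukemic (4655 to 5264) and 0 to 2 in recovered versus healthy (6 to 679), the lowest counts of the first and last for all genes being those without healthy 2. In recovered versus healthy the TPM scale, no filter and 13 separate libraries each called 1 member (Bmp4, Bmpr1b and Bmp4), and 502, 373 and 767 genes, and a mean of at least 5 FPKM called 122 genes. All genes split into 1858 higher and 1725 lower in pre-leukemic versus healthy, against 787 and 4284 on the TPM scale, and into 1945 and 3299 in recovered versus pre-leukemic, against 3814 and 1192 (TPM) and 2350 and 2546 (quantile), and into 68 and 261 in recovered versus healthy, against 50 and 452 (TPM). Same-numbered libraries did not deviate together (10 pairs, correlations -0.019 to 0.034). With the replicate block 22, 19 and 0 members and 3700, 4527 and 303 genes were called; Skil in pre-leukemic versus healthy (adjusted p = 0.0629) and Nog in recovered versus pre-leukemic (0.0624) lost their calls, and Nog in pre-leukemic versus healthy gained one (0.039). Of 2220 values of single members under an alternative, 2099 kept direction and side of the threshold, 45 gained a call with their sign kept, 36 lost one and 40 turned sign, with the cause not tested; 2 of the 40 also gained a call, Id2 in pre-leukemic versus healthy and Smad3 in recovered versus pre-leukemic, both on the TPM scale. No called difference turned sign. In pre-leukemic versus healthy, Id2 was -1.49 on the TPM scale and -0.05 to 0.33 without 1 library, and Tgfbr2 was 0.00 with the replicate block. In recovered versus pre-leukemic, Bmp4, Bmp6 and Smad3 were 0.03, 0.16 and 0.10 with quantile normalization, Bmp4, Bmp6, Tgfbr1, Tgfbr2, Smad2 and Smad3 were 0.81, 0.41, 0.45, 0.53, 0.58 and 1.17 on the TPM scale, and Id2 was -0.24 (quantile), -0.14 (without immunoglobulin genes) and -0.07 (replicate block), where Bmp4 was 0.20. Without 1 library, Bmp4 was -0.92 to 0.44, Bmp6 -1.45 to 0.02, Smad2 -1.06 to 0.09 and Smad3 -0.31 to 0.02. In recovered versus healthy, Tgfb1 was 0.20 (quantile), 0.09 (13 libraries) and 0.24 (replicate block), Skil -0.17 (quantile), -0.14 (TPM) and -0.14 (without immunoglobulin genes), Bmpr2 0.11 (replicate block) and Smad9 -0.03 (pseudocount of 0.1). Without 1 library, Tgfb1 was -0.24 to 0.11, Bmpr2 -0.25 to 0.02, Smad7 -0.61 to 0.34, Nog -0.97 to 0.21, Skil -0.03 to 0.25 and Ltbp1 -0.58 to 0.02. The difference in the Tgfb1 share was -5.25 to 0.0492 percentage points in recovered versus pre-leukemic and -0.113 to 1.59 in recovered versus healthy. Low FPKM values rest on few reads, fewer in short than in long transcripts.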
